A study of Homo sapiens with 6 samples.

Results

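CDK inhibitors and the RB family are the brakes of the cell cycle. The 8 genes described here are 3 CIP/KIP inhibitors (CDKN1A, CDKN1B and CDKN1C), 2 INK4 inhibitors (CDKN2C and CDKN2D) and the pocket proteins RB1, RBL1 and RBL2. They were picked by symbol from the 31762 genes of the count table, and each symbol had 1 row. The cells were H460, a human cell line from a large cell lung carcinoma, labelled as wild type (WT) in every group. RNA was sequenced from 3 libraries of control cells and from 3 libraries of cells treated with 20 µM fluoxetine, a serotonin reuptake inhibitor used against depression, for 24 h. The labels do not say whether the controls received a vehicle, or whether the libraries of a group came from separate cultures, so the p-values measure the spread between these libraries. Where 3 values of a group are listed, they are those of replicates 1, 2 and 3.

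The inhibitors and the pocket proteins act in sequence. Cyclin D with CDK4 or CDK6, and then cyclin E with CDK2, phosphorylate the pocket proteins in G1, which releases E2F factors and switches on the genes of DNA replication. INK4 proteins bind CDK4 and CDK6, while CIP/KIP proteins bind cyclin-CDK complexes more broadly and block CDK2. RB1 holds the activating E2F factors, whereas RBL1 (p107) and RBL2 (p130) pair mainly with E2F4 and, joined to the MuvB proteins, form the repressor complex DREAM. RBL1 is itself known as a gene that E2F switches on, and RBL2 is known as the pocket protein of resting cells.

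The shares of RBL1 and RBL2 in their family differed between the groups in opposite directions, and the sequence before the start site of each is shown for that reason. Shares of a family are parts of the same whole, so these are not separate results. The sequences are from RefSeq (build GRCh38.p14), cover the 250 bases before the RefSeq start site, run 5′ to 3′ on the strand of the gene, and lie at chr20:37095998-37096247 (minus strand) and chr16:53434221-53434470 (plus strand). Capitals mark the letters of an E2F-type motif, searched on both strands as TTCCCGC or TTCGCGC or TTGCCGC or TTGGCGC.
RBL1: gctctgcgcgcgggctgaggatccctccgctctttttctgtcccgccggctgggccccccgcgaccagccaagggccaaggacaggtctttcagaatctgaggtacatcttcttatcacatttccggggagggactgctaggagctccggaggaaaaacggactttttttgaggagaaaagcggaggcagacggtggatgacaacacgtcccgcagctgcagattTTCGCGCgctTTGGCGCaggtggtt
RBL2: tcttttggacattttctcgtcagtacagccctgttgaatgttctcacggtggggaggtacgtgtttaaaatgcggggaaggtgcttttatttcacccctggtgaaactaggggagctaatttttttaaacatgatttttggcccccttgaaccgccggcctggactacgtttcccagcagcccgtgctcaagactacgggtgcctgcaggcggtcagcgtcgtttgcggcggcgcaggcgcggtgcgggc
RBL1 held 2 matches, TTCGCGC from -25 to -19 and TTGGCGC from -15 to -9 relative to the start site. The same windows of CDKN1A, CDKN1B, CDKN2C, CDKN2D and RBL2 held none of these letters. The RefSeq start site is not always the outer end of the gene as deposited. The windows of RBL1 and CDKN2C lie before the deposited gene, that of CDKN2D overlaps its start, and those of RBL2, CDKN1A, CDKN1B and RB1 lie inside the deposited bounds, so the RBL2 sequence printed above is downstream of the gene start given further on. The RB1 window, at chr13:48476200-48476449, is near the 3′ end of the gene, and its letters were not read as a promoter. Of all 35116 windows of this length, 3822 (10.9%) held a match, against 16 of the 28 windows of the E2F target genes described further on (57.1%). The members had a match in 1 of 7 windows (14.3%, with that of RB1 counted), near the share of all windows. Of the other lists, the G1/S cyclins and CDKs (0 of 8), the pocket protein corepressors (0 of 11) and the other CDK-inhibitory genes (0 of 3) had none. The highest share was 5 of 8 (62.5%) for the E2F and DP factors. Lists count 1 window per gene, while the share of all windows counts every window. A match of letters is a description and not a measured binding site.

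The libraries held 16157507 to 27823667 counts, and every fluoxetine library was less deep than every control library. A count of 3, the limit that a count of 0 allows, was worth 0.108 to 0.182 CPM (counts scaled to the same library total, with the TMM factors of edgeR), for counting error alone. Counts of replicates differed by more than sampling (chi-square over its degrees of freedom, 3.69 to 25.2 for pairs within groups). The epithelial keratins KRT8, KRT18 and KRT19 were abundant, KRT8 at 1292 to 2099 CPM, but CDH1 was counted at most 1 time and EPCAM at most 11 times per library. The summed level of the 6 epithelial markers was 3058 to 4028 CPM in control and 2689 to 3264 CPM in fluoxetine libraries. Of the markers of immune cells 2 of 5 had a row in the count table, and of those of endothelium 3 of 4. These had at most 3 counts in any library. The 6 fibroblast markers summed to 30.5 to 32.7 CPM in control and 29.1 to 29.8 CPM in fluoxetine libraries. COL1A2 had no more than 2 counts. Among the tested markers edgeR called KRT18 lower (log2 difference -0.72), COL3A1 lower (-0.53) and LUM higher (0.88). Whether marker levels have a part in the results was not tested.

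Of the 8 members, 7 were tested, and 1 of them, RBL2, was higher after fluoxetine treatment at an adjusted p-value under 0.05 (quasi-likelihood test of edgeR, adjusted over all 15646 tested genes by the method of Benjamini and Hochberg). None (0) was lower by edgeR, also at an unadjusted p-value under 0.05 (1 higher, 0 lower), and 0 of the called genes reached a fold change of 2. DESeq2 and limma-voom also called 1 member higher and 0 lower. A log2 difference is the log2 of the fluoxetine level over the control level. The share of all tested genes called was 13.1% in either direction, 7.76% higher, 5.32% lower and 1.39% with the 2-fold minimum, so the members' count is near the background. Leaving out single libraries gave 409 to 1627 higher and 163 to 2006 lower calls over all genes, against 1214 and 833, with the fewest in both directions without fluoxetine replicate 1 and the most without control replicate 3. Without control replicate 1, control replicate 2 or fluoxetine replicate 3 the counts were 642, 484 and 611 higher and 549, 435 and 324 lower. The median log2 difference was 0.16 for the 7 tested members and 0.03 for all tested genes. The split of all calls was 59.3% higher and 40.7% lower, and became 49.6% and 50.4% once trends with exon length and GC content were removed, 51.1% and 48.9% with DESeq2, and 48.3% and 51.7% at equal depth. It was 64.3% and 35.7% with scaling by library size only, 71.5% and 28.5% without fluoxetine replicate 1, 65.3% and 34.7% without fluoxetine replicate 3, 44.8% and 55.2% without control replicate 3, 49.1% and 50.9% without fluoxetine replicate 2, and 47.9% and 52.1% with no filter on low counts. In a bulk sample, less RNA per cell and fewer cells of a kind cannot be told apart.

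**Figure D1:**
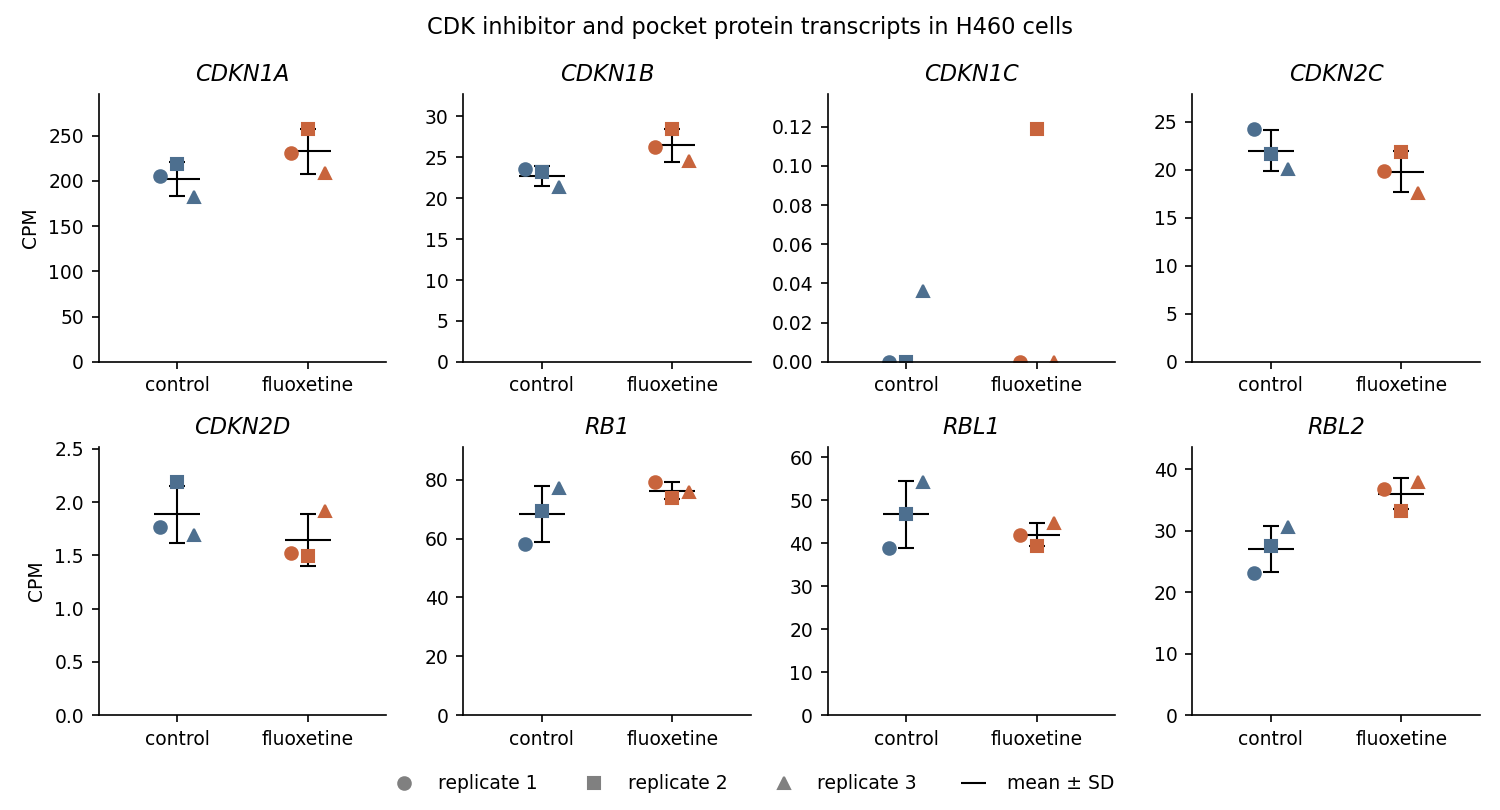
Level of each of the 8 genes in CPM (y axis, from 0) in the 3 control and 3 fluoxetine libraries. Symbols give the replicate, and black bars the mean ± SD, which is left out for CDKN1C (0 to 2 counts per library). RBL2 and CDKN1B show every fluoxetine library above every control library, and the other 6 genes overlap between the groups. Over all tested genes, 17.5% had every fluoxetine library above every control library, and 31.9% did not overlap in either direction.

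Within control cells the genes spanned a wide range of levels. Per kilobase of exon, CDKN1A was the most abundant, at 59.8 to 71.9 CPM per kb. RB1 followed at 9.26 to 12.3, CDKN1B at 7.57 to 8.41, RBL1 at 6.53 to 9.12, CDKN2C at 6.07 to 7.33, RBL2 at 3.17 to 4.18 and CDKN2D at 1.13 to 1.46 CPM per kb. In this order, CDKN1B overlapped RBL1, and RBL1 overlapped CDKN2C, so these neighbours are not separated in control cells. After fluoxetine treatment the order was the same except that CDKN1B (8.72 to 10.1 CPM per kb) no longer overlapped RBL1 (6.60 to 7.51 CPM per kb).

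CDKN1A encodes p21, a CIP/KIP inhibitor that cells switch on under stress. The gene (ENSG00000124762) lies on chromosome 6 from 36676460 to 36687339 on the plus strand, and positions here and for the other genes are those deposited, on GRCh38. It was at 205, 219 and 182 CPM in control libraries and at 231, 258 and 209 CPM in fluoxetine libraries. The lowest fluoxetine library was thus below the highest control library. Means of 202 ± 18.6 CPM in control and 233 ± 24.7 CPM in fluoxetine cells (SD, n = 3 each) gave a log2 difference of 0.20 ± 0.10 (SE, edgeR adjusted p = 0.192). The 95% interval of the fold change ran from 0.994 to 1.33. With the trends of exon length and GC content removed from each library, the log2 difference was 0.27 (edgeR adjusted p = 0.0113) and passed the threshold. The overlapping antisense gene DINOL had no row in the count table.

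CDKN1B encodes p27, which restrains cyclin E-CDK2 and is cleared in S phase through the ubiquitin ligase SCF-SKP2. It lies on chromosome 12 from 12715058 to 12722371 on the plus strand (ENSG00000111276). Control libraries were at 23.6, 23.2 and 21.3 CPM, and fluoxetine libraries at 26.3, 28.5 and 24.5 CPM. Every fluoxetine library was above every control library, which held in this direction for 17.5% of all tested genes. The log2 difference was 0.22 ± 0.10 (SE, edgeR adjusted p = 0.183), and the 95% interval of the fold change ran from 0.997 to 1.36. It reached 0.28 (edgeR adjusted p = 0.0193) with the trends of exon length and GC content removed. The intronic transcript AC008115.3, inside the gene on the same strand, averaged 5.5 counts per library.

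CDKN1C, an imprinted gene that encodes p57, a CIP/KIP inhibitor with a role in development, was close to undetected. The gene (ENSG00000129757, chromosome 11, 2883213 to 2885881, minus strand) had 0, 0 and 1 counts in control and 0, 2 and 0 counts in fluoxetine libraries. All 6 libraries were at or under the limit of 3 counts, so no fold change is given and a difference was not detectable at this depth.

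The proportions of the CIP/KIP genes overlapped between the groups. CDKN1A made up 88.9%, 89.7% and 88.7% of the summed CPM per kb of the 3 genes in control libraries and 89.0%, 89.3% and 88.7% in fluoxetine libraries. The difference of the means was -0.106 percentage points (exact permutation p = 0.8, two-sided, 3 against 3 libraries). CDKN1B held 10.9% ± 0.509 (SD, n = 3) in control and 11% ± 0.306 (SD, n = 3) in fluoxetine cells, a difference of 0.0963 percentage points (exact permutation p = 0.8). The ratio of CDKN1A to CDKN1B, 8.19 ± 0.441 (SD, n = 3) in control and 8.10 ± 0.251 (SD, n = 3) in fluoxetine cells, overlapped between the groups. With 3 libraries against 3, no exact permutation p-value can fall below 0.1.

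CDK2, the kinase that p21 and p27 inhibit, fell. It was at 40.7, 41.9 and 41.8 CPM in control libraries and at 26.9, 29.2 and 29.7 CPM in fluoxetine libraries, a log2 difference of -0.54 ± 0.09 (SE, edgeR adjusted p = 0.00363). The level of each inhibitor relative to CDK2 was higher in every fluoxetine library than in any control library. CDKN1A and CDKN1B themselves were not called (log2 differences of 0.20 and 0.22, edgeR adjusted p = 0.192 and 0.183). The lower level of CDK2 thus has a large part in these ratios. CDKN1A per kb was 6.42, 6.67 and 5.56 times CDK2 in control libraries and 11, 11.3 and 8.97 times in fluoxetine libraries. For CDKN1B these ratios were 0.805, 0.767 and 0.705, and 1.35, 1.35 and 1.14. The means of these ratios were 1.67 and 1.69 times as high as in control, and since the ratios were chosen after the values were seen, no test is given for them.

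The INK4 genes did not pass the test in either direction. CDKN2C encodes p18, and the gene (ENSG00000123080, chromosome 1, 50960745 to 50974633, plus strand) was at 24.3, 21.6 and 20.1 CPM in control libraries and at 19.9, 21.9 and 17.6 CPM in fluoxetine libraries. The groups overlapped, and the log2 difference was -0.15 ± 0.12 (SE, edgeR adjusted p = 0.456), with a 95% interval of the fold change from 0.751 to 1.08. Its targets CDK4 and CDK6 had log2 differences of 0.10 (adjusted p = 0.601) and -0.28 (edgeR adjusted p = 0.120). Relative to CDK4, CDKN2C per kb was 0.220 ± 0.0146 (SD, n = 3) in control and 0.185 ± 0.00913 (SD, n = 3) in fluoxetine cells, without overlap, while relative to CDK6 the groups overlapped. Both ratios were chosen after the values were seen and carry no test. For levels of single genes, the groups did not overlap in either direction for 31.9% of all tested genes.

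CDKN2D, which encodes p19, was the scarcest of the tested members, with 25 to 47 counts per library. The gene is ENSG00000129355 (chromosome 19, 10566462 to 10569059, minus strand), and was at 1.77, 2.19 and 1.69 CPM in control libraries and at 1.52, 1.49 and 1.92 CPM in fluoxetine libraries. The groups overlapped (log2 difference -0.19 ± 0.24, SE, edgeR adjusted p = 0.645). Its interval was the widest of the family, from 0.606-fold to 1.27-fold. The other INK4 genes, CDKN2A and CDKN2B, had no row under these symbols in the count table, so no value is given for them.

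**Figure D2:**
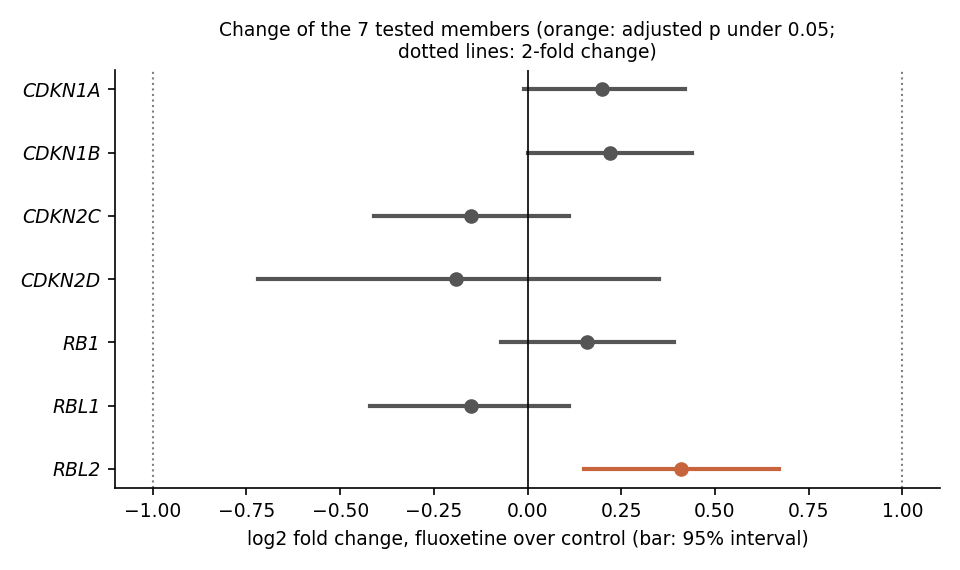
Log2 difference of fluoxetine over control (x axis) for the 7 tested members, with the 95% interval from edgeR as a bar. RBL2, in orange, has an interval from 0.15 to 0.67, the other 6 intervals include 0, and all 7 lie inside the dotted lines of a 2-fold change.

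RBL2 encodes p130, the pocket protein that dominates in resting cells. The gene (ENSG00000103479) lies on chromosome 16 from 53433977 to 53491649 on the plus strand. Control libraries had 512, 528 and 850 counts, or 23.2, 27.5 and 30.6 CPM. Fluoxetine libraries had 607, 559 and 653 counts, or 36.9, 33.2 and 38.0 CPM. All fluoxetine libraries were above all control libraries, which held in this direction for 17.5% of all tested genes. The control mean of 27.1 ± 3.71 CPM and the fluoxetine mean of 36.0 ± 2.49 CPM (SD, n = 3 each) gave a log2 difference of 0.41 ± 0.12 (SE, edgeR adjusted p = 0.0433) and a 95% interval of the fold change from 1.11 to 1.59.

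This call of RBL2 is near the threshold. With each library left out in turn, it stayed past the threshold only without control replicate 3 (edgeR adjusted p = 0.00878), and the adjusted p-values were 0.177, 0.157, 0.2, 0.0531 and 0.171 from edgeR without control replicates 1 and 2 and fluoxetine replicates 1, 2 and 3. At equal depth it was 0.0781. The direction was the same in all of these fits, with log2 differences of 0.27 to 0.48 when a library was left out.

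An overlapping gene and a trend with exon length are given beside RBL2, and their part in its result was not tested beyond the values here. Its 3′ end shares 610 exonic bases with AKTIP on the other strand, and AKTIP had a log2 difference of -0.02 (edgeR adjusted p = 0.945) at 13.8 to 16.6 CPM. Another transcript there, AC007342.6, averaged 0.83 counts per library. The exons of RBL2 cover 7.32 kb, and genes of at least 7.04 kb, the longest 25% of tested genes, stood at a median of -0.135, -0.059 and 0.020 on the log2 scale from their mean over all libraries in control libraries and at 0.095, -0.014 and 0.118 in fluoxetine libraries. The order of the libraries was that of RBL2 except for control replicate 3 and fluoxetine replicate 2, which changed places. With the trends of exon length and GC content removed, the log2 difference of RBL2 was 0.32 (edgeR adjusted p = 0.0237).

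RBL1, which encodes p107, did not pass the test, and its estimate was on the other side of 0. The gene is ENSG00000080839 (chromosome 20, 36996349 to 37095995, minus strand). Control libraries were at 38.9, 46.9 and 54.3 CPM, and fluoxetine libraries at 42.0, 39.3 and 44.7 CPM. The control libraries thus spread more widely than the fluoxetine libraries and enclosed them. The log2 difference was -0.15 ± 0.12 (SE, edgeR adjusted p = 0.456), with a 95% interval of the fold change from 0.746 to 1.08. The antisense gene AL136172.1 at its start averaged 1.33 counts per library.

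RB1 encodes the retinoblastoma protein, the pocket protein of the activating E2F factors. The gene (ENSG00000139687) runs on chromosome 13 from 48303751 to 48481986 on the plus strand, as deposited. It was at 58.2, 69.3 and 77.2 CPM in control libraries and at 79.3, 73.8 and 75.8 CPM in fluoxetine libraries. The groups overlapped, with a log2 difference of 0.16 ± 0.10 (SE, edgeR adjusted p = 0.347) and a 95% interval of the fold change from 0.954 to 1.31. LPAR6, on the other strand within the bounds of RB1 but sharing no exonic base with it, averaged 53.83 counts per library.

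The makeup of the pocket protein family differed between the groups without overlap for RBL1 and RBL2. Among the summed CPM per kb of the 3 genes, RBL2 held 16.7%, 16.6% and 16.4% in control libraries and 20.4%, 19.9% and 21.0% in fluoxetine libraries. RBL1 held 34.4%, 34.8% and 35.7%, and then 28.5%, 28.9% and 30.3%. For both genes the groups lay far apart against their spread. The shares of a library are parts of the same whole, so a higher share of RBL2 goes with a lower share elsewhere. The level of RBL1 itself overlapped between the groups (log2 difference -0.15, edgeR adjusted p = 0.456).

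The mean share of RBL2 went from 16.6% ± 0.190 (SD, n = 3) to 20.4% ± 0.560 (SD, n = 3), by 3.85 percentage points (exact permutation p = 0.1, two-sided, the smallest that 3 against 3 libraries can give). That of RBL1 went from 35% ± 0.643 (SD, n = 3) to 29.3% ± 0.955 (SD, n = 3), by -5.71 percentage points (exact permutation p = 0.1). RB1 held 48.5% ± 0.454 (SD, n = 3) and 50.3% ± 1.44 (SD, n = 3), with overlapping groups and a difference of 1.86 percentage points (exact permutation p = 0.2). These tests cannot pass 0.05 with 3 libraries a group. Over the 6 shares tested, the Benjamini-Hochberg adjusted values of these exact tests were 0.3 for RBL2 and RBL1, 0.4 for RB1 and 0.96 for CDKN1A and CDKN1B.

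The ratio of RBL2 to RBL1 was steady within groups. Per kb of exon it was 0.486, 0.477 and 0.458 in control libraries and 0.715, 0.688 and 0.692 in fluoxetine libraries, a 1.47-fold difference of the means. The ratio of RBL2 to RB1 was 0.343, 0.341 and 0.341, and then 0.400, 0.387 and 0.431. The 3 pocket protein genes differed between control libraries in the same order, so their ratios varied less than their levels. These ratios were also chosen after the values were seen and carry no test.

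**Figure D3:**
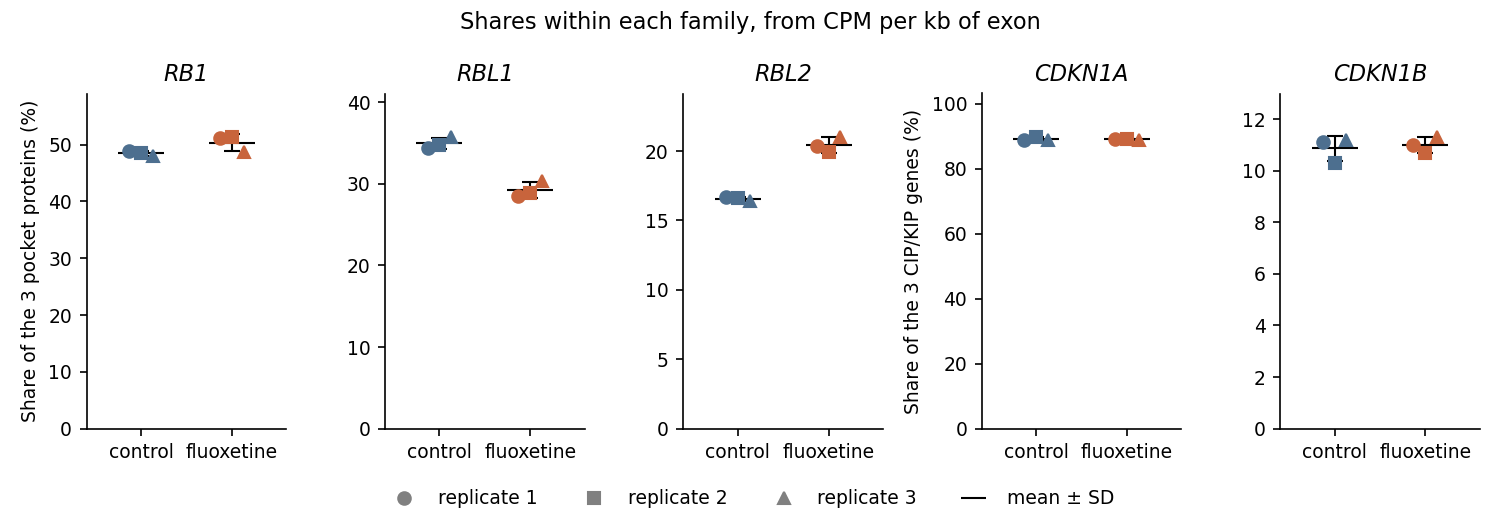
Share of each gene in the summed CPM per kb of exon of its family (y axis, %, from 0), per library, with the mean ± SD as black bars. RBL1 lies at 34.4% to 35.7% in control and 28.5% to 30.3% in fluoxetine libraries, RBL2 at 16.4% to 16.7% and 19.9% to 21.0%, and CDKN1A and CDKN1B overlap between the groups.

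The genes around the family are given from 9 lists, with 108 tested genes in all, of which 8 were called higher and 36 lower. Of the 32 tested E2F target genes, which supply DNA replication, 21 were called lower and 0 higher, with a median log2 difference of -0.36 against 0.03 for all tested genes. At an unadjusted p-value under 0.05, edgeR gave 30 lower and 0 higher, and DESeq2 called 24 lower and 0 higher. All fluoxetine libraries were below all control libraries for 29 of the 32, which held in this direction for 14.4% of all tested genes. UHRF1, a partner of DNA methyltransferase at the fork, went from 107 ± 5.55 to 73.5 ± 3.85 CPM (SD, n = 3; log2 difference -0.54, edgeR adjusted p = 0.00186). CDC45, a part of the replicative helicase, had -0.53 (adjusted p = 0.00239) and RRM2, the small subunit of ribonucleotide reductase, -0.47 (edgeR adjusted p = 0.00273). Without fluoxetine replicate 1, edgeR called 9 of them lower.

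Among 10 tested E2F and DP factors, edgeR called 3 lower and 0 higher (5 lower and 0 higher at an unadjusted p-value under 0.05), and DESeq2 4 lower and 0 higher. E2F1, an activator held by RB1, was at 55.4, 56.3 and 48.2 CPM in control libraries and at 39.6, 36.3 and 35.8 CPM in fluoxetine libraries (log2 difference -0.52, edgeR adjusted p = 0.00640). E2F4, the main partner of RBL1 and RBL2, had a log2 difference of -0.37 (adjusted p = 0.0220), and TFDP1, the dimer partner of E2F factors, of -0.30 (edgeR adjusted p = 0.0181). The median of the 10 genes was -0.24.

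Of the 8 tested MuvB and DREAM partners, 1 was lower, MYBL2, which joins MuvB as an activator in S phase (log2 difference -0.42, edgeR adjusted p = 0.0128), and the median was -0.08. Among 11 tested corepressors of pocket proteins, 3 were lower, namely the histone methyltransferase SUV39H1 (-0.48, adjusted p = 0.0141) and the histone deacetylases HDAC1 (-0.30, adjusted p = 0.0248) and HDAC2 (-0.28, edgeR adjusted p = 0.0354). The median of the corepressors was -0.07. In both lists 0 genes were called higher by edgeR or DESeq2, and at an unadjusted p-value under 0.05 edgeR gave 1 higher and 3 lower among the MuvB partners and 1 higher and 5 lower among the corepressors.

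Cyclins and CDKs of G1/S gave 3 lower and 0 higher of 10 tested genes by edgeR and by DESeq2 (5 lower and 0 higher by edgeR at an unadjusted p-value under 0.05). Beside CDK2, these were CCND3, a D-type cyclin (log2 difference -0.39, adjusted p = 0.0327), and CCNA2, the cyclin of S phase (-0.26, edgeR adjusted p = 0.0353). CCND1 had a log2 difference of 0.03 (edgeR adjusted p = 0.863), with a 95% interval from -0.14 to 0.19 on the log2 scale. The 8 tested genes of CDK activation encode kinases and phosphatases that act on CDKs, and partners of the kinase CDK7. Of these, CDC25A, a phosphatase that activates CDK2, was lower (-0.48, edgeR adjusted p = 0.00647). CDC25B, which acts later in the cycle, was higher (0.35, edgeR adjusted p = 0.0191). CDKN3, a phosphatase of CDK2 that was the 1 gene analysed of the list of other CDK-inhibitory genes, was lower (-0.32, edgeR adjusted p = 0.0286). Scaled by library size only, CCNA2 had an edgeR adjusted p of 0.0535.

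Ligases that clear p21 and p27 gave 3 lower and 1 higher of 12 tested genes. CKS1B, the cofactor with which SKP2 recognises p27, was lower (log2 difference -0.47, adjusted p = 0.00318), as was DTL, the CDT2 subunit that recognises p21 on PCNA (-0.36, edgeR adjusted p = 0.0138). CUL4B, a cullin scaffold, rose from 135 ± 15.1 to 205 ± 11.3 CPM (SD, n = 3; log2 difference 0.60, edgeR adjusted p = 0.00245). The third lower gene was RBX1 (-0.42, edgeR adjusted p = 0.0399). SKP2 itself had a log2 difference of -0.27 (edgeR adjusted p = 0.0548). RBX1 and SKP2 were singled out after their values were seen. The number of ligase genes called lower by edgeR was 1 without fluoxetine replicate 1, where RBX1 and DTL lost the call, and 6 without control replicate 3.

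Transcription factors that act on the inhibitor genes gave 6 higher and 0 lower of 16 tested genes by edgeR and by DESeq2. At an unadjusted p-value under 0.05, edgeR gave 8 higher and 1 lower, and the median was 0.23. The list was not split by whether a factor activates or represses the inhibitor genes. By edgeR, 10 of the 16 were not called, and 7.76% of all tested genes were called higher. KLF6, which acts on CDKN1A, had a log2 difference of 0.65 (adjusted p = 5.88e-04), DDIT3, the stress factor CHOP, of 1.23 (adjusted p = 0.00142), and KLF4, another activator of CDKN1A, of 0.63 (edgeR adjusted p = 0.00239). The other 3 were FOXO4, FOXO1 and EGR1, singled out after their values were seen. FOXO factors switch on CDKN1B and RBL2. FOXO4 was at 1.63, 1.67 and 1.51 CPM in control libraries and at 3.46, 3.69 and 2.79 CPM in fluoxetine libraries (log2 difference 1.05, edgeR adjusted p = 0.00934). FOXO1 had 0.58 (adjusted p = 0.0104) and FOXO3 0.44 (edgeR adjusted p = 0.0679).

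Without fluoxetine replicate 1, which gave the fewest calls over the lists of any left-out library, the calls by edgeR of CCND3, CCNA2, CDC25B, E2F4, TFDP1, MYBL2, SUV39H1, HDAC1, HDAC2, DTL and CDKN3 were lost, and all of these except MYBL2, SUV39H1 and DTL were also lost without fluoxetine replicate 3. The other named genes of the lists that follow the naming rule stayed called whichever library was left out.

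**Figure D4:**
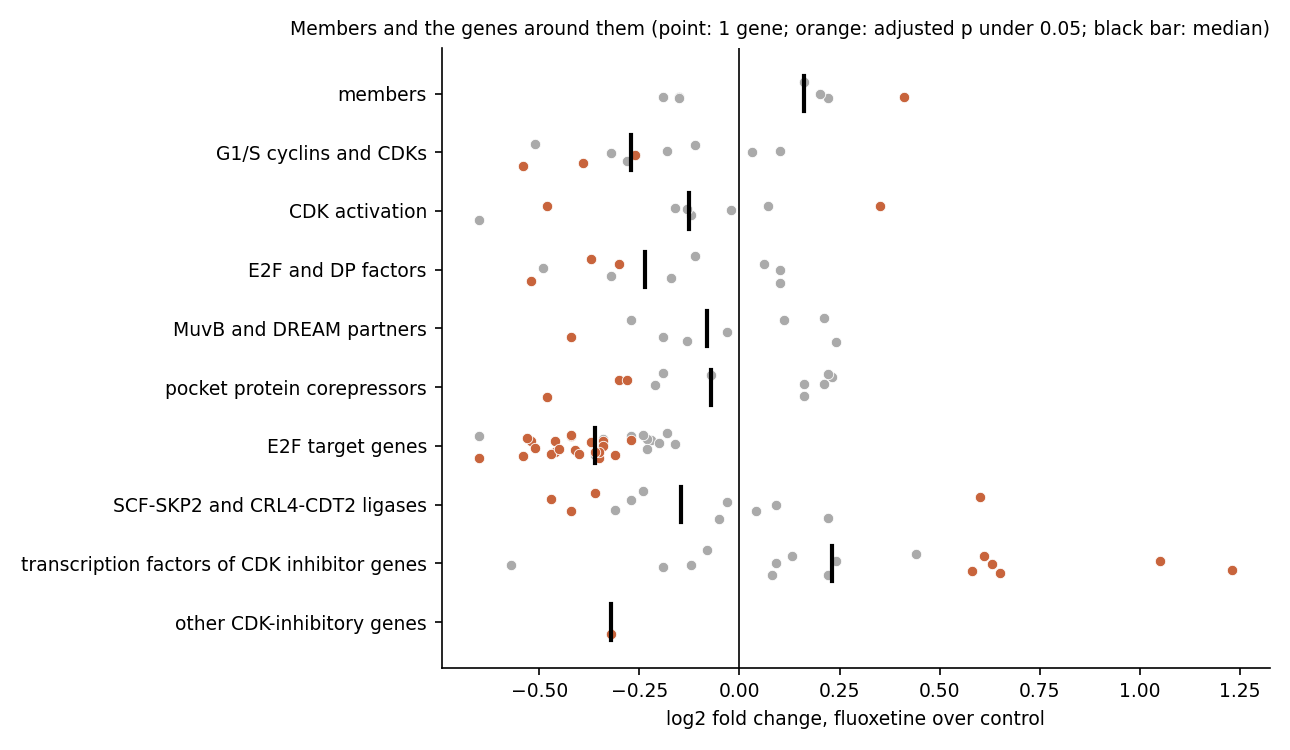
Log2 difference of fluoxetine over control (x axis) for the tested members and the tested genes of the 9 lists, 1 point a gene, with called genes in orange and medians as black bars. The E2F target genes lie between -0.65 and -0.16, the 7 members between -0.19 and 0.41, and the transcription factors of CDK inhibitor genes reach 1.23.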

How the data were processed

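RNA sequencing was analysed in 3 control and 3 fluoxetine-treated libraries of H460 cells, grouped by the deposited treatment labels. The authors deposited raw counts of reads per gene, not normalized or pooled. Submitters' processing notes name fastp 0.20.0, HISAT2 2.1.0, HTSeq 0.10.0 and DESeq2 1.18.1. The genome build, annotation and strand setting are not given in the sources used here, but gene positions are those of GRCh38, with 96.81% of shared genes identical in GENCODE release 29. The deposited table also holds the authors' comparison as a log2 fold change with its raw and adjusted p-value, and these columns were not used.

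The counts were fitted with edgeR 4.0.16 under R 4.3.3 (filterByExpr, TMM, glmQLFit and glmQLFTest, no covariate, Benjamini-Hochberg adjustment over 15646 genes), and called at an adjusted p-value under 0.05. Intervals of 95% use the standard error and degrees of freedom of that fit. Levels per kb divide CPM by GENCODE exon bases inside the deposited gene bounds. Shares were compared by exact permutation (SciPy 1.17.1).

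The members and gene lists were chosen with earlier results of these data known, and the lists were written by hand from general knowledge. Beside the members, up to 3 called genes of each of the 9 lists are named by smallest p-value, every analysed gene of a list of at most 3, the 3 genes most like a called member, and overlapping genes. Other genes are marked, except FOXO3, CCND1, CDK4 and CDK6 and the marker genes, which are given for their role. Alternatives were DESeq2 1.42.0, limma-voom (limma 3.58.1), RLE, library size only, no filter, at least 10 counts in every library, a replicate block and leaving out each library. Thinning to 16157507 counts and removing exon length and GC trends (known for 99.71% of tested genes) were chosen after seeing the data. RefSeq windows matched 7 of 8 members. The fit was tested on simulated data. A gene and a list of genes around the family are not reported here.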

Additional observations from a re-analysis of the deposited data

How the results depend on the processing

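The number of members called higher, 1, was 0 to 1 over the fits that left out a single library, 0 at equal depth and 3 with the trends of exon length and GC content removed, the 3 being CDKN1A, CDKN1B and RBL2. The number called lower stayed at 0 in all of these fits. No log2 fold change of the 29 tested named genes changed sign (0 reversals). Over the 9 other settings, CDKN1A lay between 0.17 and 0.27 and RBL2 between 0.32 and 0.43. Of the 22 other named genes that were called, 21 were called in all 9 settings and 11 in all 6 fits that left out a library. Across the lists, 8 genes were higher and 36 lower of 108, and the lower count was 53 with the replicate block and 54 with the trends removed. Leaving out a library gave 5 to 11 higher and 13 to 48 lower, with the fewest lower genes (13) without fluoxetine replicate 1, 21 without fluoxetine replicate 3 and 23 without control replicate 2, and 5 higher without control replicate 2 or fluoxetine replicate 1. E2F target genes called lower ranged from 9 to 25 of 32 when a library was left out, against 21. The cause was not tested, beyond fewer libraries in those fits.

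Deviations of same-numbered libraries from their group means had correlations of 0.0297, 0.116 and 0.392 across genes. Those of differently numbered libraries ran from -0.38 to 0.32. With so few libraries, these values cannot decide whether the numbers pair them. With the replicate block, RBL2 had an adjusted p of 4.51e-04 and CDKN1A of 0.0607 from edgeR, and all genes called went from 1214 higher and 833 lower to 2231 and 1787. Lower calls over all genes were 1516 with no filter and 1684 with the trends removed. The share differences of RBL2 (3.57 to 4.13 percentage points) and RBL1 (-6.25 to -5.35) kept their direction without any 1 library, and were 4.23 and -5.61 without division by exon length. Depth limits CDKN1C (0 to 2 counts) and CDKN2D (25 to 47 counts).

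Counts of lower calls within small lists moved by more than 1.5 times in some settings. With the replicate block or the trends removed, G1/S cyclins and CDKs went from 3 to 5 and MuvB partners from 1 to 2. CDK activation genes went from 1 to 2 (no filter or block) or 3 (trends removed), E2F and DP factors from 3 to 5 (no filter or block), corepressors from 3 to 6 (trends removed), and ligases from 3 to 5 (DESeq2, RLE, no filter, equal depth) or 6 (block). Lower calls among the transcription factors went from 0 to 1 with the trends removed.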

Other observations

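The levels of RBL2 over the 6 libraries were most like those of NEMP1, TNKS and PDE3A, measured as the root mean square difference of log2 CPM centred on each gene's mean. The differences were 0.0152 for NEMP1, 0.0261 for TNKS and 0.0269 for PDE3A. NEMP1, a protein of the inner nuclear membrane, was at 61.0, 72.0 and 79.3 CPM in control replicates 1, 2 and 3, and at 95.1, 85.1 and 100.3 CPM in fluoxetine replicates 1, 2 and 3, and its log2 difference was 0.40 (edgeR adjusted p = 0.0329). PDE3A, a phosphodiesterase, had 0.42 (adjusted p = 0.0297) and TNKS, which encodes tankyrase, 0.36 (edgeR adjusted p = 0.0632). With so many genes compared over 6 libraries, close profiles occur without any tie between the genes, and nothing is drawn from them.

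Levels of pocket protein partners relative to each other were also recorded. Per kb of exon, RB1 stood at 0.515 ± 0.112 (SD, n = 3) of E2F1 in control and 0.815 ± 0.0242 (SD, n = 3) in fluoxetine cells, and RBL2 at 0.0952 ± 0.0187 (SD, n = 3) and 0.163 ± 0.0233 (SD, n = 3) of E2F4. Neither ratio overlapped between the groups. Both were chosen after the values were seen and carry no test. The spread of the pocket protein genes among control libraries (13.7% to 16.6% of the mean) was wider than that among fluoxetine libraries (3.67% to 6.91%).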
